A study of Xenopus tropicalis with 31 samples.

Results

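The 1.00% of chromatin windows with the highest mean ATAC-Seq signal in regenerating tadpole tails, 379 on assembled chromosomes and 864 on unplaced scaffolds of 124349 windows in all, are described here across both cell populations and the 5 timepoints. They were chosen by signal alone. Counts in each of 29 libraries were scaled to the library's total over all windows (expressed as CPM), each window's CPM was averaged over the libraries, and the highest 1.00% were kept. They are called the top windows below. A window covers 400 bp around the summit of a peak of the X. tropicalis v9.0 genome. Because mean CPM chose the windows, their levels are given as a description with no test. Only contrasts between samples, which the choice did not use, were tested.

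ATAC-Seq uses a transposase that inserts sequencing adapters where DNA is not wrapped around nucleosomes, so fragment counts rise at open chromatin. Open sites are commonly promoters, at the transcription start site (TSS) of a gene, and enhancers, which lie at a distance from it. Enhancers tend to be open in particular cell types and promoters in many. A genome assembly also holds unplaced scaffolds, pieces of sequence that were not assigned to a chromosome. Sequence that occurs in several near-identical copies is hard to place, and reads from copies that the assembly lacks or merges are counted on the copy it holds.

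The study profiled tails of X. tropicalis tadpoles to follow neural progenitors through spinal cord regeneration. The pax6 samples (13) were GFP+ sorted cells, and the all-tissue samples (14) were tail cells for which the sorter put GFP+ and GFP- cells together in 1 tube. Every tadpole, all-tissue ones included, carried the same transgene with pax6:GFP, cryga:RFP and actc1:RFP. In it the pax6 promoter drives GFP and the cryga and actc1 promoters drive RFP. In the deposited counts, however, the all-tissue libraries are labelled WT. Tails were amputated 3 days after fertilization, and cells were taken from the amputated tips (uninjured) or from the tail at 0, 6, 24 or 72 hours post amputation (hpa), with 2 or 3 samples per population and timepoint. All-tissue samples contain the pax6 cells as well, so a contrast between the populations sets a part against the whole, and GFP marks cells by a transgene, not by pax6 itself. Nothing in the labels says which replicates came from separate clutches, so p-values measure the spread between these samples.

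Total counts were 3069659 to 12130125 in pax6 samples and 4401013 to 13256076 in all-tissue samples. At the 58.4 CPM of the lowest top window, counting error was therefore small, and the median coefficient of variation (CV) that counting alone gives a top window was 0.0433. The populations differed at a window near pax6, the gene whose promoter drives the reporter's GFP. The window 4941 bp from the pax6 TSS, which is not a top window, had 5.07 to 13.4 CPM (median 8.89) in pax6 samples, against 1.59 to 4.59 CPM (median 3.14) in all-tissue samples, a log2 fold change of 1.5 (SE 0.12, adjusted p = 1.55e-12, edgeR). Both sets of samples were fully apart at this window. The windows 2808 and 5759 bp from the same TSS were not called (log2 fold changes of 0.33, adjusted p = 0.165, and 0.32, adjusted p = 0.427, edgeR). Libraries P01 and PW3 had 11 and 143 counts and were left out.

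Before any contrast, 3 libraries stood apart within the top windows. These were pax6 uninjured replicate 2, all-tissue 0hpa replicate 1 and 1 of the 2 libraries of all-tissue uninjured replicate 1, listed as its first. None of these libraries is among the 23 libraries of the authors' deposited comparisons. In 122 of the top windows (9.81%) the mean CPM of these libraries was above the median of the other 26 libraries by more than 0.75 on the log2 scale, with a median of 1.40. The median of the other 1121 top windows was 0.05. The gap between both kinds of window was not empty, with 31 top windows between 0.5 and 0.75 and 14 between 0.75 and 1. The 122 windows are called the variable set below. Several results that rest on them are also given without these libraries or without the set.

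The levels fell steeply and then slowly with rank. The highest window had 2373 CPM and the next 2366 CPM, while the third had 961 CPM. Rank 100 stood at 237 CPM and rank 500 at 95.4 CPM. Only 2 windows exceeded 1000 CPM, 28 exceeded 500 CPM and 445 exceeded 100 CPM. The median of the top windows was 85.7 CPM, 17.7 times the median of all windows (4.84 CPM).

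**Figure D1:**
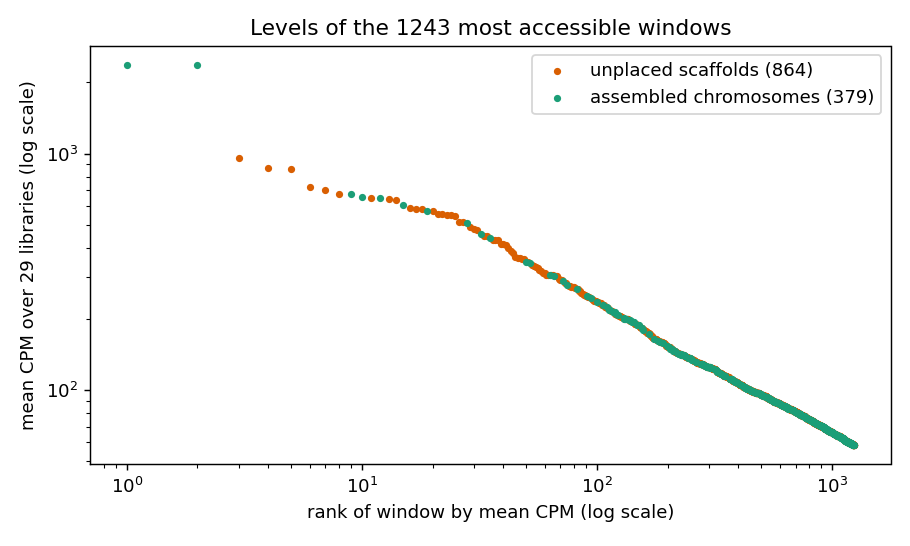
Mean CPM over 29 libraries (vertical, log scale) against rank (horizontal, log scale) for the top windows, with 864 windows on unplaced scaffolds in orange and 379 on assembled chromosomes in green. The first pair of windows, both on chromosomes, stands at 2373 and 2366 CPM, well above the third at 961 CPM, and the curve ends at 58.4 CPM.

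The threshold cuts through a continuous range. The last windows inside it were on scaffold_2309 (58.440 CPM), scaffold_9441 (58.388 CPM) and scaffold_3043 (58.387 CPM), none with an annotated gene. The first windows outside it were on scaffold_429 at LOC101731235-like (58.376 CPM), on scaffold_5724 near arfip2 (58.356 CPM) and on scaffold_1168 (58.314 CPM). Ranking by the median over libraries instead of the mean kept 1227 of the windows, and ranking by the mean of both populations' means kept 1238.

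The strength of a peak in the authors' peak calling was a different quantity from its count. The MACS2 score (−log10 of the q-value on the merged libraries) had a median of 41.2 in top windows and of 5.23 in all windows. The top windows ranged from 2.36 to 219, and 68 of them lay under the median of all windows. Only 476 of them were also in a list of the same length made of the windows with the highest scores. Windows with many counts and low scores recur in the runs described below, where whole stretches of neighbouring windows were high.

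Most top windows lay outside the assembled chromosomes. Unplaced scaffolds held 864 of them (69.5%) but 24.3% of all windows. As a share of the windows on each kind of sequence, 2.85% of scaffold windows and 0.403% of chromosome windows were top windows. Among chromosomes the share ran from 0.236% on chromosome 7 to 0.938% on chromosome 10. The 864 windows were spread over 379 of the 3707 scaffolds that hold a window, and 230 of these scaffolds held 1 top window each. On 88 scaffolds every window was a top window, which accounts for 159 of them. Top windows were also near the start of a scaffold more often than scaffold windows as a whole, with 111 of 864 (12.8%) in the first 1000 bp against 5.80%. The other end was not measured, and scaffold length was not taken into account. Whether the top windows hold sequence that occurs in several copies was not tested.

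Many top windows had no gene to describe them by. In the authors' annotation, 368 top windows (29.6%) had no nearest gene, against 5.59% of all windows, and all 368 were on a scaffold. The other 875 pointed to 533 genes, of which 268 carried only a gene-model identifier, 106 a LOC number and 159 a symbol. Genes with a symbol accounted for 210 of the top windows. Of the LOC numbers, 51 were found in RefSeq (UCB_Xtro_10.0) and 19 of them had a symbol there, such as LOC100491837, which is cyp2c8.1, a cytochrome P450 gene.

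Distance to the nearest TSS did not set the top windows apart as strongly as the kind of sequence did. Within 500 bp of a TSS lay 86 of the 875 annotated top windows (9.83%), against 9.18% of all annotated windows. Between 501 and 5000 bp lay 185 (21.1% against 16.6%), between 5001 and 50000 bp 437 (49.9% against 51.2%), and farther away 167 (19.1% against 23.0%). The median distance was 14031 bp for top windows and 16530.5 bp for all windows. On chromosomes 19 of 379 top windows (5.01%) were within 500 bp of a TSS, against 9.17% of chromosome windows, and on scaffolds 67 of 496 (13.5%), against 9.22% of scaffold windows.

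Of the 86 top windows at a TSS, 65 belonged to gene models without a name, 9 to LOC numbers and 12 to genes with a symbol. Those with a symbol included tbrg4, a regulator of mitochondrial RNA, at 111 CPM, sh3d19-like at 99.8 CPM, MGC147242 at 90.9 CPM and art1, an ADP-ribosyltransferase, at 82.7 CPM. Lower in the list were plcb4-like, a phospholipase C, at 73.2 CPM, ten1-like, a telomere-binding factor, at 71.2 CPM, and taf1a, a factor of RNA polymerase I transcription, at 68.2 CPM. The histone deacetylase gene hdac6-like had a window on each side of its TSS at 70.1 and 58.7 CPM, the mitochondrial hydrolase gene hint2 had 60.3 CPM, and the nucleolar gene nop2-like had 59.96 CPM.

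Several gene models without a name had high levels at their TSS. The highest window of all lay 107 bp from the TSS of Xetrov90016335m.g on chromosome 6. Xetrov90030890m.g on scaffold_937 followed with 640 CPM at 56 bp, then Xetrov90027277m.g on scaffold_2231 with 584 CPM at 378 bp and Xetrov90027826m.g on scaffold_2850 with 553 CPM at 237 bp. The 20 highest windows included one near kbtbd4 and one near myh3. The window near kbtbd4, which encodes a substrate adaptor of a ubiquitin ligase, lay 20563 bp away, and that near myh3, an embryonic myosin heavy chain in mammals, lay 4008 bp away.

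The 2 highest windows moved together across libraries. One is on chromosome 6 (summit 69212783) and the other on chromosome 2 (summit 155184702, 15519 bp from the TSS of LOC100491003-like). The first had 968 to 3065 CPM (median 2169) in pax6 samples and 1448 to 4367 CPM (median 2511) in all-tissue samples. The second had 850 to 2944 CPM (median 2225) in pax6 samples and 1488 to 4524 CPM (median 2536) in all-tissue samples. Both populations overlapped widely at each window, and neither differed by the test (log2 fold changes of −0.27, SE 0.17, adjusted p = 0.508, and −0.28, SE 0.18, adjusted p = 0.509).

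Across the 29 libraries the first window spanned 5.41-fold and the second 6.11-fold, but their ratio stayed between 0.939 and 1.14. The lowest was the first library of the all-tissue uninjured replicate 1 sample, with 807 and 740 CPM, and the highest was all-tissue 24hpa replicate 3, with 4367 and 4524 CPM. The 3 libraries that stood apart had the lowest levels at this pair, at 807, 968 and 1448 CPM on chromosome 6, while the other 26 began at 1600 CPM. The pair and the variable set thus ran in opposite directions in these libraries. Whether both windows hold copies of 1 sequence was not tested, because the genome sequence was not used here.

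Top windows clustered along the genome. Counting neighbours with no lower window between them as a run, the top windows formed 841 runs, of which 653 were a single window (52.5% of the top windows). Another 387 windows lay in 163 runs of 2 to 4, and 203 lay in 25 runs of 5 or more. No neighbouring pair had summits under 400 bp apart, although 2058 such pairs exist among all windows. The windows of such a pair overlap, and how fragments shared by both were counted is not given in the sources used here. Whether this kept such pairs off the list was not tested.

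The longest run held 28 consecutive windows over 93.6 kb of chromosome 2 (first summit 102082925, last summit 102176479). Its windows had 80.2 to 303 CPM, whereas the 20 windows flanking it had 2.82 to 9.84 CPM. The nearest gene was gemin8, a component of the SMN complex that assembles small nuclear ribonucleoproteins, for 13 windows, and gpm6b-like, a proteolipid of neuronal and glial membranes, for 15. None of these windows was near a TSS, the closest lying 47825 bp from gpm6b-like.

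All 28 windows of this run belonged to the variable set, so high levels in the 3 libraries that stood apart follow from its definition. Summed over the run, all-tissue uninjured replicate 1 had 8852 CPM in its first library, all-tissue 0hpa replicate 1 had 8621 CPM and pax6 uninjured replicate 2 had 7356 CPM. The other 26 libraries had 2097 to 4669 CPM (median 3027), and among them the second library of that same sample had 2990 CPM. The flanking windows did not rise with the run. Their sum was 77.3, 88.9 and 81.4 CPM in these 3 libraries, against 87.4 to 115 CPM in the others. Per window, the run exceeded its flanks 81.8-fold, 69.3-fold and 64.5-fold in the 3 libraries and 13.6- to 36.5-fold in the others.

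**Figure D2:**
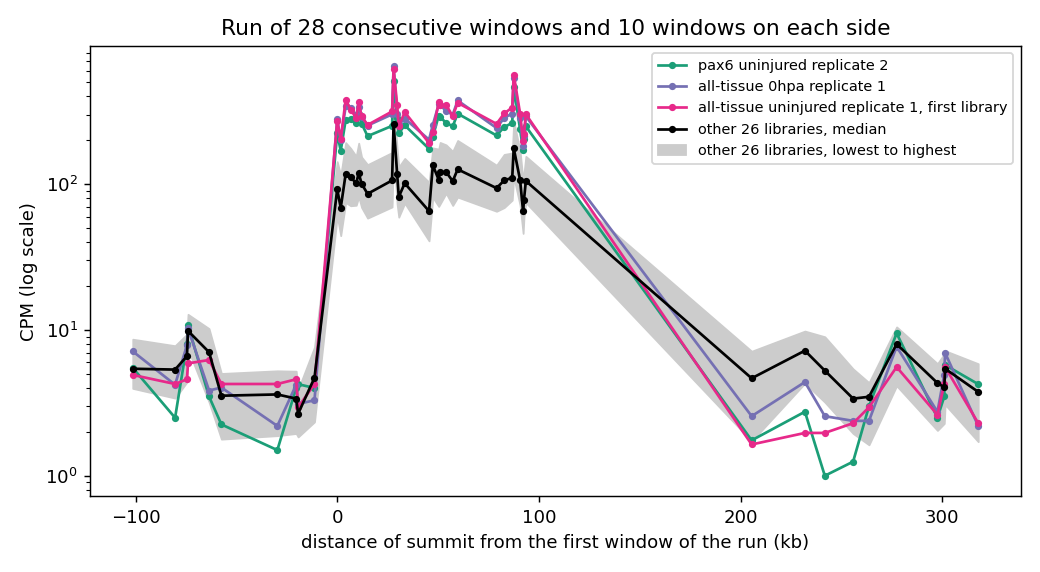
CPM (vertical, log scale) of the 28 windows of the longest run and of 10 windows on each side, against distance of the summit from the first window in kb. Coloured lines are the 3 libraries that stood apart, the black line is the median of the other 26 and the grey band their range. Within the run the coloured lines lie above the band, which follows in part from the choice of the variable set. On the flanks, at 2.82 to 9.84 CPM on average, they lie within or below it. The exception is a flank window where pax6 uninjured replicate 2 had 4.25 CPM, against at most 3.90 CPM in the band.

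Besides this run, runs of 5 windows on scaffold_2276 and scaffold_2657 lay wholly in the variable set (median CVs of 0.422 and 0.404, against 0.412 in the longest run). The other runs of 5 or more windows held no window of the set. On scaffold_236 a run of 15 windows (summits 72580 to 100874) had 149 to 641 CPM with a median CV of 0.164. On chromosome 1 a run of 13 windows (summits 46999753 to 47039620) had 62.6 to 608 CPM, and its median MACS2 score was 4.46, under that of all windows. On chromosome 10 a run of 8 windows (summits 20072745 to 20080837) was nearest to myadml2 and comprised all 8 windows of that gene, at 142 to 250 CPM, next to windows of at most 4.35 CPM. On chromosome 5 a run of 8 windows near LOC101732795 (summits 36091412 to 36106167) had 58.7 to 115 CPM.

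Scaffold_499 held more of the list than any chromosome or other scaffold. It had 129 top windows of its 270, at 58.5 to 248 CPM, in several runs of which the longest had 12 windows. They were nearest to LOC101733080 (53 of its 101 windows), Xetrov90029139m.g (53 of 95) and LOC101730572 (23 of 67). Their median CV was 0.0816, and none belonged to the variable set. Together they took 0.959 to 1.12% (median 1.06%) of the counts in pax6 samples and 0.950 to 1.13% (median 1.06%) in all-tissue samples. None of the 129 was called between the populations. Over all windows 0.639% were called higher and 0.885% lower, so 0 of 129 says little about this scaffold.

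The scaffolds next in number were smaller. Scaffold_1360 held 19 top windows of its 23, none with a gene, and scaffold_1034 held 12 of its 13. Scaffold_837 held 15 of its 19, all nearest to Xetrov90030649m.g. Scaffold_236 held 17 of its 43, and their summed share was 0.413 to 0.708% (median 0.517%) in pax6 samples, against 0.516 to 0.904% (median 0.608%) in all-tissue samples. Among all scaffolds, 8 held 10 or more top windows, 224 together.

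The variable set was spread over 45 sequences. Chromosomes held 35 of its 122 windows, 29 of them on chromosome 2, and 39 scaffolds held the other 87. On 30 of these scaffolds every window was in the set, accounting for 71 windows, and 37 of the 39 had 5 windows or fewer. No gene was annotated to 85 of the windows, and none lay within 500 bp of a TSS. The most variable top windows all came from the set, led by windows on scaffold_4748 (CV 0.514), scaffold_2657 (0.493) and near gpm6b-like (0.480), then scaffold_141 (0.467) and scaffold_5971 (0.466). Its median CV was 0.393, against 0.107 for the other top windows. A large spread follows from the definition of the set, which was chosen by a difference between libraries. Outside the list the same pattern was rare, at 26 of 5383 other windows above 20 CPM (0.483%).

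Summed signal of the top windows was alike in both populations. They took 14.3 to 16.7% of the counts in pax6 samples (mean 15.2 ± 0.653%, SD, n = 13) and 14.3 to 17.8% in all-tissue samples (mean 15.3 ± 0.913%, SD, n = 14). The ranges overlapped. The highest share in each population belonged to a sample of a library that stood apart, pax6 uninjured replicate 2 with 16.7% and all-tissue 0hpa replicate 1 with 17.8%. Without the variable set the shares were 12.9 to 14.3% (median 13.6%) in pax6 samples and 13.1 to 14.4% (median 13.7%) in all-tissue samples. The set itself took 1.26 to 3.00% in pax6 samples and 0.957 to 3.42% in all-tissue samples.

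**Figure D3:**
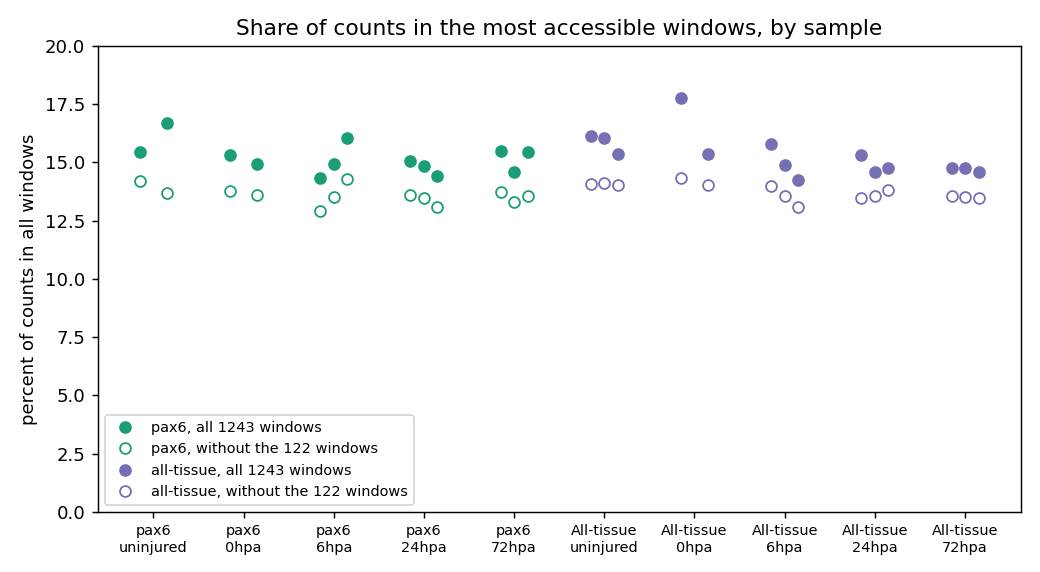
Percent of a sample's counts that fell in the top windows (filled points) and in the top windows without the 122 of the variable set (open points), for pax6 samples on the left and all-tissue samples on the right, by timepoint. Filled points run from 14.3 to 17.8%, and open points from 12.9 to 14.4%.

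By timepoint, the mean share in pax6 samples was 16.1 ± 0.854% uninjured, 15.1 ± 0.281% at 0hpa, 15.1 ± 0.869% at 6hpa, 14.8 ± 0.317% at 24hpa and 15.2 ± 0.510% at 72hpa (SD, n = 2, 2, 3, 3 and 3). In all-tissue samples it was 15.9 ± 0.432% uninjured, 16.6 ± 1.70% at 0hpa, 14.98 ± 0.778% at 6hpa, 14.9 ± 0.364% at 24hpa and 14.7 ± 0.105% at 72hpa (SD, n = 3, 2, 3, 3 and 3). Only uninjured and 0hpa in pax6 samples, of all neighbours in this order, differed by more than the larger of their SDs. Without the variable set the all-tissue means were 14.1, 14.2, 13.6, 13.6 and 13.5%, and the pax6 means 13.9, 13.7, 13.6, 13.4 and 13.5%.

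Top windows varied little between samples. Their CV had a median of 0.111 (range 0.0456 to 0.514), against 0.228 for all windows, and much of that gap was counting error, which alone gave 0.181 over all windows. The CV beyond counting had a median of 0.102 in top windows, 0.0986 in windows between 40 CPM and the threshold, 0.103 in windows of 10 to 20 CPM and 0.134 in all windows. The low spread was therefore shared with other windows of more than 10 CPM. A CV above 0.3 was found in 115 top windows, 108 of them in the variable set, and in 7 once the samples with the 3 libraries were left out. The fold between the highest and the lowest of the 10 group means had a median of 1.28 and reached 2.93, and it exceeded 2 in 108 windows, of which 94 were in the variable set. That the set makes up most of both counts follows from its definition by a difference between libraries.

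Between the populations the question was which of the top windows differ between pax6 cells and the whole tail. The log2 fold change (pax6 over all-tissue) had a median of −0.01 in top windows and of 0.00 in all windows, and 96.9% of top windows were within 0.25 of 0, against 86.1% of all windows. In edgeR's quasi-likelihood test (adjusted p under 0.05 over all windows) 7 top windows were higher in pax6 samples and 16 were lower. That is 0.563% and 1.29% of the top windows, and the shares over all windows tested were 0.639% higher and 0.885% lower. In bulk samples a lower count from fewer cells with the window open and from less opening in each cell cannot be told apart.

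**Figure D4:**
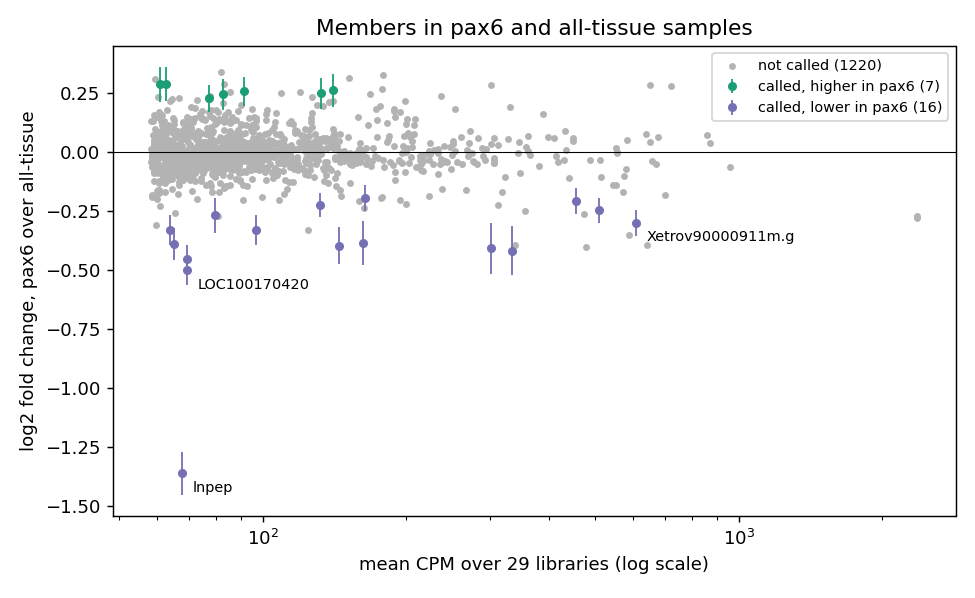
Log2 fold change of pax6 over all-tissue samples (vertical) against mean CPM over 29 libraries (horizontal, log scale) for the top windows. Coloured points with bars (standard error) are the 7 windows called higher and the 16 called lower in pax6 samples, grey points the 1220 not called, and the window near lnpep at −1.36 lies apart from all others.

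The window that differed most was near lnpep, the gene of leucyl-cystinyl aminopeptidase, a membrane peptidase. It lies on chromosome 1 (summit 173155921), 61426 bp from the TSS. It had 18.0 to 48.1 CPM (median 39.4) in pax6 samples and 80.3 to 101 CPM (median 96.4) in all-tissue samples, so every pax6 sample was below every all-tissue sample. The log2 fold change was −1.36 (SE 0.09, adjusted p = 1.48e-13), or 0.389-fold. Within timepoints it was −1.32 uninjured, −1.32 at 0hpa, −1.33 at 6hpa, −1.40 at 24hpa and −1.46 at 72hpa. The call held in each of the 38 alternative fits, at −1.40 to −1.30.

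A second window was fully apart between the populations, on scaffold_149 (summit 243580, 5185 bp from the TSS of Xetrov90026447m.g). It had 48.8 to 69.4 CPM (median 57.9) in pax6 samples and 72.3 to 89.8 CPM (median 78.2) in all-tissue samples (log2 fold change −0.46, SE 0.06, adjusted p = 5.66e-07). Complete separation was thus found for 2 top windows with pax6 below and for 0 with pax6 above, against 0.0113% and 0.0225% of all windows. Of the 4 top windows on scaffold_149, 3 were lower in pax6 samples. The one at 245136 had 103 to 190 CPM (median 117) in pax6 samples and 134 to 198 CPM (median 163) in all-tissue samples, with 11 of 13 pax6 samples below every all-tissue sample (log2 fold change −0.40, adjusted p = 0.00244). The one at 259119 had 66.2 to 102 CPM (median 84.4) in pax6 samples and 78.8 to 128 CPM (median 108) in all-tissue samples, and these overlapped (log2 fold change −0.33, adjusted p = 0.00113). The highest window there, 257190 at rank 7, had 594 to 722.9 CPM (median 650) in pax6 samples and 601 to 858 CPM (median 758) in all-tissue samples, and it was not called (log2 fold change −0.18, adjusted p = 0.0662).

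Chromosome 1 held 7 of the 16 lower windows among its 35 top windows. Near LOC100170420 (summit 104055676, 204740 bp from the TSS) levels were 41.5 to 69.5 CPM (median 58.0) in pax6 samples and 67.2 to 97.6 CPM (median 79.6) in all-tissue samples, and 12 of 13 pax6 samples lay below every all-tissue sample (log2 fold change −0.50, SE 0.06, adjusted p = 2.19e-07). Near tomm5, a small subunit of the mitochondrial outer membrane translocase (summit 96755878), levels were 45.2 to 65.4 CPM (median 57.1) in pax6 samples and 53.0 to 87.6 CPM (median 72.8) in all-tissue samples. Here only 4 pax6 samples were below every all-tissue sample (log2 fold change −0.39, SE 0.07, adjusted p = 0.000282). Near Xetrov90003668m.g (summit 185281746) levels were 47.4 to 65.2 CPM (median 56.7) in pax6 samples and 54.8 to 82.7 CPM (median 68.3) in all-tissue samples, which overlapped (log2 fold change −0.33, adjusted p = 0.0018).

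The run of 13 windows on chromosome 1 held 4 of the called windows. Its 3 highest were lower in pax6 samples and lie 3528 to 7209 bp from the TSS of Xetrov90000911m.g. At 47013604 levels were 456 to 661 CPM (median 542) in pax6 samples and 562 to 794 CPM (median 667) in all-tissue samples, with 8 pax6 samples below every all-tissue sample (log2 fold change −0.30, SE 0.05, adjusted p = 0.00051). The windows at 47016611 and 47017285 had log2 fold changes of −0.25 (adjusted p = 0.00704) and −0.21 (adjusted p = 0.033), with overlapping samples. The first window of the same run, at LOC101732891 (summit 46999753), went the other way, with 56.1 to 89.9 CPM (median 66.0) in pax6 samples and 47.9 to 68.6 CPM (median 53.8) in all-tissue samples. It was 1.22-fold higher (log2 fold change 0.29, SE 0.07, adjusted p = 0.0233), and 6 pax6 samples were above every all-tissue sample.

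Scaffold_236 held 3 more lower windows among its 17. They had log2 fold changes of −0.42 at 82699, −0.41 at 96677 and −0.39 at 83494 (adjusted p = 0.0337, 0.0467 and 0.0252), with standard errors near 0.10 and overlapping samples. At 82699, for example, levels were 196 to 417 CPM (median 260) in pax6 samples and 313 to 591 CPM (median 363) in all-tissue samples. The last 3 lower windows were on chromosome 8 at 307098 (log2 fold change −0.23, adjusted p = 0.00955), on scaffold_1522 at 15488 (−0.27, adjusted p = 0.043) and near aldh3b1-like.2, an aldehyde dehydrogenase gene, on scaffold_376 (−0.20, adjusted p = 0.0445).

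The 7 higher windows had log2 fold changes of 0.23 to 0.29. Only one of them was at a TSS, 38 bp from that of Xetrov90015365m.g on chromosome 5, with 83.6 to 120 CPM (median 102) in pax6 samples and 70.6 to 106 CPM (median 83.6) in all-tissue samples. These overlapped, with 3 pax6 samples above every all-tissue sample, and the difference was 1.19-fold (log2 fold change 0.26, SE 0.06, adjusted p = 0.0195). At LOC100498475 on chromosome 3 (summit 29982423) levels were 73.3 to 92.8 CPM (median 85.1) in pax6 samples and 58.0 to 85.2 CPM (median 70.5) in all-tissue samples, and 6 pax6 samples were above every all-tissue sample (log2 fold change 0.23, SE 0.06, adjusted p = 0.0254). The others were on chromosome 7 near Xetrov90019340m.g (0.26), on scaffold_243 (0.28), on scaffold_8580 (0.25) and on scaffold_9153 (0.24), with adjusted p between 0.0292 and 0.0469.

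None of the 122 windows of the variable set was called between the populations. Over all windows 0.639% were called higher and 0.885% lower. The set was chosen by high levels in libraries of both populations, which adds spread within each, so this 0 says little about it. Without the 3 libraries the counts were 36 higher and 19 lower, against 1628 and 2521 of all windows, and all 23 windows were still called. Among called windows, 30.4% of top windows and 42.0% of all windows were higher in the main fit. Without the 3 libraries these shares were 65.5% and 39.2%, so the lean of the top windows depended on these libraries. The split also moved with the scaling, to 13 higher and 12 lower with total counts in place of TMM, against 988 and 889 of all windows. Leaving out all-tissue 0hpa replicate 1 gave 21 higher windows, against 1169 of all windows (795 in the main fit). Without all-tissue uninjured replicate 1 or pax6 24hpa replicate 1 there were 11, against 806 and 900 of all windows. Without all-tissue 0hpa replicate 3, all-tissue 72hpa replicate 1 or pax6 6hpa replicate 3 there were 3, against 529, 531 and 535. Leaving out all-tissue 72hpa replicate 3, all-tissue uninjured replicate 3 or pax6 72hpa replicate 3 gave 4, against 591, 637 and 799. The lower count was 10 without pax6 6hpa replicate 3, where 799 of all windows were lower and 535 higher. Of the 23 windows, 11 kept an adjusted p under 0.05 in each of the 38 alternative fits, 10 of them lower and LOC100498475 higher. At an adjusted p under 0.01, 10 lower windows and 0 higher ones were called.

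Over the timepoints the question was whether the top windows change after amputation. In all-tissue samples, 72hpa against uninjured, 6 top windows were lower (0.483%, against 0.0249% of all windows) and 0 were higher (0.0844% of all windows). DESeq2 and the likelihood ratio test also called 0 higher, and 8 lower each, against 31 and 92 lower of all windows. At an unadjusted p under 0.05, 103 were lower (8.29%, against 3.17% of all windows) and 45 were higher (3.62%, against 4.99% of all windows). Counting alone gave a median CV of 0.0433 in top windows and 0.181 in all windows. A change of a given size can thus be easier to call in top windows, in either direction. Whether this bears on the counts given here was not tested. The median log2 fold change was −0.08 in top windows and 0.00 in all windows. For the variable set it was −0.68, and for the other top windows −0.05. Of the uninjured all-tissue samples, replicate 1 includes one of the 3 libraries by which the set was chosen. A fall of the set from uninjured to 72hpa therefore follows in part from that choice. Without the 3 libraries, 12 top windows were lower and the median over the top windows was −0.07.

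Across the 5 timepoints in all-tissue samples, 5 top windows changed (0.402%, against 0.105% of all windows). At an unadjusted p under 0.05, 267 did (21.5%, against 7.58% of all windows). On scaffold_658 the window at 72904 had 780, 658 and 784 CPM uninjured, 755 and 700 CPM at 0hpa, 606, 583 and 560 CPM at 6hpa, 603, 393 and 494 CPM at 24hpa and 503, 511 and 504 CPM at 72hpa. All 72hpa samples were below all uninjured ones, and the samples at 24hpa spread most. The log2 fold change of 72hpa over uninjured was −0.57 (SE 0.11, adjusted p = 0.0262, and 0.00587 over all timepoints). Its neighbour at 80785, 81 bp from the TSS of Xetrov90029924m.g, averaged 234 ± 11.5 CPM uninjured, 228 ± 5.55 at 0hpa, 185 ± 6.09 at 6hpa, 155 ± 27.3 at 24hpa and 158 ± 9.01 at 72hpa (SD, n = 3, 2, 3, 3 and 3). Its log2 fold change was −0.58 (SE 0.11, adjusted p = 0.0149, and 0.0019 over all timepoints).

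The other 3 windows were also highest uninjured and lower at 24hpa and 72hpa. On scaffold_805 at 2312 the means were 476, 443, 375, 318 and 333 CPM over the same timepoints, on scaffold_3932 at 5433, 168 bp from the TSS of Xetrov90028542m.g, 341, 331, 276, 236 and 240 CPM, and on chromosome 3 at 131865060, near Xetrov90009919m.g, 545, 530, 449, 392 and 390 CPM. Their adjusted p over the timepoints was 0.0244, 0.023 and 0.0441. For 72hpa over uninjured the log2 fold changes were −0.53 (SE 0.12, adjusted p = 0.0486), −0.53 (SE 0.12, adjusted p = 0.0426) and −0.50 (SE 0.12, adjusted p = 0.0611), the last not past the threshold. The 5 windows lie on 4 sequences. Within a sample their levels, each relative to the window's own mean, spread by a median of 0.14 and at most 0.48 on the log2 scale, while the samples' medians spanned 0.99.

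**Figure D5:**
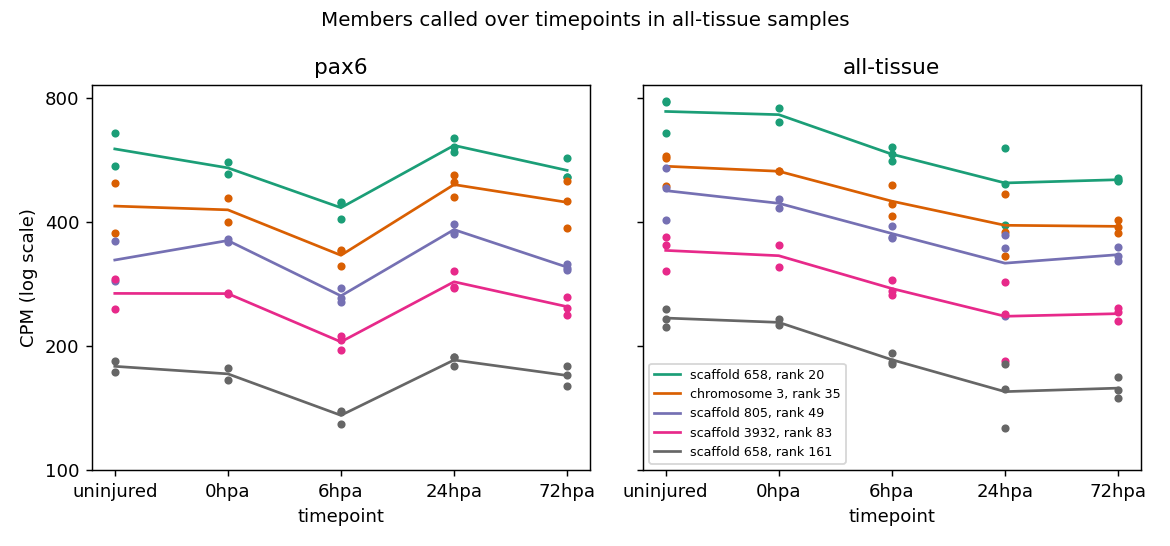
CPM (log scale) of the 5 top windows called over the timepoints in all-tissue samples, for pax6 samples on the left and all-tissue samples on the right. Points are samples and lines join group means, from uninjured to 72hpa. In all-tissue samples the line of the scaffold_658 window at rank 20 is highest uninjured (740 CPM) and lower from 6hpa on (506 CPM at 72hpa), and in pax6 samples all 5 lines are lowest at 6hpa.

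In pax6 samples the same 5 windows had another order. At 72904 on scaffold_658 the means were 601 ± 78.4 CPM uninjured, 540 ± 24.96 at 0hpa, 433 ± 22.5 at 6hpa, 613 ± 25.2 at 24hpa and 533 ± 33.3 at 72hpa (SD, n = 2, 2, 3, 3 and 3). The 6hpa samples, at 407, 445 and 447 CPM, were below all other pax6 samples. At 80785 the means were 179, 171, 136, 185 and 170 CPM. None of the 5 was called over the timepoints in pax6 samples (adjusted p of 0.408 to 0.501), and the difference between the populations in these changes was not called (adjusted p of 0.176 to 0.361).

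A further 2 windows were lower at 72hpa in all-tissue samples. Near kbtbd4 on chromosome 4 levels were 598, 589 and 521 CPM at 72hpa, against 751, 969 and 807 CPM uninjured, with no overlap (log2 fold change −0.58, SE 0.13, adjusted p = 0.0498). In pax6 samples this window had 551, 625 and 585 CPM at 72hpa, against 884 and 904 CPM uninjured, also without overlap, but this was not called (log2 fold change −0.63). Near LOC101731664 on scaffold_127 levels were 71.0, 80.7 and 64.2 CPM at 72hpa, against 98.6, 129 and 99.6 CPM uninjured, again with no overlap (log2 fold change −0.61, SE 0.13, adjusted p = 0.0426).

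These calls were sensitive to single samples, and so were those over all windows. Over all windows the 31 lower calls became 8 without all-tissue 72hpa replicate 1 and 1 without replicate 3. They became 2 without all-tissue uninjured replicate 1 and 1 without replicate 3. The 6 lower windows became 0 without all-tissue 72hpa replicate 1 or 3, or without all-tissue uninjured replicate 1 or 3, and none of the windows named for the time course was called for 72hpa under every one of the 37 alternatives. The 5 windows over the timepoints (131 of all windows) became 2 without any 1 of the same 4 samples, against 20 to 42 of all windows. Without all-tissue 24hpa replicate 1 they became 15, against 238 of all windows. Leaving out either all-tissue 0hpa replicate left a single sample in that group. The count then fell without replicate 1 and rose without replicate 3, in top windows and over all windows. The sample left without replicate 3 was one that stood apart. Leaving out a pax6 sample, which enters only through the shared spread, gave 9 or 10 windows for pax6 72hpa replicate 3, pax6 uninjured replicate 1 or replicate 2, and 2 lower windows at 72hpa for each of 6 pax6 samples (0hpa replicates 2 and 3, 6hpa replicate 2 and the 24hpa replicates). Leaving out all-tissue 6hpa replicate 2 or 3, or all-tissue 72hpa replicate 2, gave 2 or 3 lower windows, against 8 to 23 of all windows. Leaving out pax6 72hpa replicate 3 gave 377 of all windows over the timepoints. Leaving out pax6 6hpa replicate 2 or a pax6 24hpa replicate gave 19 to 23 of all windows lower at 72hpa.

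In pax6 samples no top window was called. For 72hpa against uninjured edgeR called 0 higher and 0 lower (0.0% of all windows in each direction). At an unadjusted p under 0.05, 54 were higher (4.34%, against 4.28% of all windows) and 179 lower (14.4%, against 4.27%). DESeq2 and the likelihood ratio test called 1 lower window each, against 4 and 20 lower of all windows. Across the timepoints edgeR called 0 (0.000804% of all windows), with 208 at an unadjusted p under 0.05 (16.7%, against 7.44% of all windows). DESeq2 called 8, against 23 of all windows, and the likelihood ratio test 0, against 54. The uninjured group held 2 samples, one of which stood apart. Without the other one, pax6 uninjured replicate 1, the reference was a single sample that stood apart. More windows were then called at 72hpa and over the timepoints, in top windows and over all windows. The median log2 fold change at 72hpa was −0.42 for the variable set and −0.08 for the other top windows. The set was chosen by high levels in libraries that include pax6 uninjured replicate 2, so its fall follows in part from that choice. Over all top windows the median was −0.10, and −0.05 without the 3 libraries.

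The test of whether the change over time differs between the populations called 0 top windows (0.00402% of all windows). At an unadjusted p under 0.05 there were 107 (8.61%, against 6.64% of all windows). DESeq2 called 7, against 23 of all windows, and the likelihood ratio test 1, against 82. Without all-tissue 24hpa replicate 1 edgeR called 2, against 6 of all windows, and without pax6 72hpa replicate 3 it called 1, against 8. Leaving out pax6 uninjured replicate 1 or all-tissue 0hpa replicate 3 left a single sample in a group, and more top windows were then called.

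Few top windows were nearest to genes of the lists examined, which hold genes of pathways, of cell types and of housekeeping. Of 2620 windows nearest to 292 genes in 19 lists, 6 were top windows (0.229%, against 0.403% of windows on chromosomes and 1.00% of all windows). The lists name genes by symbol, and only 210 of the top windows were nearest to a gene with a symbol. The shares for comparison are not limited to such windows, so 0.229% cannot be read as a depletion. With shares this small, a count of 0 in a single list says little about that list. None of 172 windows near neural progenitor genes was one, the highest being 43.7 CPM near olig2, a transcription factor of motor neuron and oligodendrocyte progenitors. None of 159 near neuron genes was one, the highest being 33.3 CPM near gap43, a growth cone protein. The lists of Wnt (327 windows), BMP and TGF-beta (197), Notch (113), Hedgehog (104), axon guidance (357), synapse and adhesion (331), AP-1 and immediate early genes (44), Meis and Pbx (87), skeletal muscle (40), notochord (102), blood, vessel and immune cells (96), connective tissue (51) and the transgene's promoters (20) also had none.

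The 6 windows that were on the list belonged to 4 genes, with 2 of 167 windows in the epidermis list, 1 of 99 in the cell cycle list, 1 of 222 in the FGF list and 2 of 49 among housekeeping genes. The epidermal and neural crest factor tfap2c had windows of 145 and 108 CPM on scaffold_113, 191400 and 202559 bp from its TSS. The window near ccnd1, the cyclin that carries cells into the cell cycle, had 74.6 CPM, and that near fgf3, a secreted growth factor, 67.7 CPM, both on chromosome 4. The glycolytic gene gapdh had windows of 72.7 and 59.2 CPM on chromosome 7. None of the windows of ccnd1, fgf3 and gapdh lay within 500 bp of the TSS. The highest windows that near a TSS had 19.4, 7.23 and 8.27 CPM in the cell cycle, FGF and housekeeping lists. For tfap2c the higher window had 124 to 184 CPM (median 140) in pax6 samples and 123 to 181 CPM (median 142) in all-tissue samples, and for fgf3 levels were 54.7 to 79.5 CPM (median 69.3) in pax6 samples and 57.3 to 86.4 CPM (median 66.9) in all-tissue samples. All 6 windows overlapped between the populations, and none was called in any contrast.

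The hox genes, a list chosen after the values were seen, had 2 top windows of 78. The one 5178 bp from hoxb1, a hindbrain patterning gene, was at 193 CPM (chromosome 10, summit 5024375), with 161 to 250 CPM (median 178) in pax6 samples and 157 to 242.8 CPM (median 189) in all-tissue samples. The one 8524 bp from hoxb9, a posterior gene of the same cluster, was at 59.2 CPM (summit 5127821), with 50.7 to 67.7 CPM (median 57.4) in pax6 samples and 51.2 to 72.8 CPM (median 60.1) in all-tissue samples. Both overlapped between the populations (log2 fold changes of −0.04 and −0.08).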

How the data were processed

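The authors used Trim Galore for trimming and Bowtie2 for alignment to X. tropicalis v9.0, removed duplicates, called peaks with MACS2 on merged alignments, and obtained each library's fragments per window from featureCounts. The deposited counts are whole numbers without normalization, and the deposited peak scores are −log10 q-values. The authors' table of the nearest TSS gave gene names and distances in bp. Its fold changes and p-values, and those of the other comparison tables, are the authors' own comparisons and were not used. How multiply mapping reads were treated is not given in the sources used here.

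Libraries P01 (11 counts) and PW3 (143 counts) were left out, and for 2 samples with a second library both were added up, leaving 27 samples. The top windows were the 1243 of highest mean CPM over the 29 libraries. The second 72hpa library was assigned by its label. The 124342 windows that reached 1 CPM in 2 or more samples were tested with edgeR 4.0.16 in R 4.3.3 (TMM, robust quasi-likelihood F test, Benjamini-Hochberg adjusted p under 0.05), checked on simulated data. A model with 2 groups compared the populations, and one with 10 groups (population and timepoint) tested times and their interaction. DESeq2 1.42.0 and other settings were alternatives. The interval given for a share is exact at a confidence level of 95% and covers counting error only.

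Named windows were those of the 20 highest means, the 10 (populations) or 5 (72hpa, timepoints) most changed per direction, up to 15 at a TSS, genes with most windows, listed genes, 3 on each side of the threshold and the 5 highest CVs. Called windows beyond these limits, TSS windows with a symbol, runs and the variable set were named after their values were seen. The top windows and lists were chosen with earlier results of these data known. One window that met the naming rule is not reported here.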

Additional observations from a re-analysis of the deposited data

Results flagged for a closer look

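In the library PW3, a pax6 uninjured library left out of every comparison, 19 of its 143 counts fell in the top windows, a share of 13.3% (exact 95% interval 8.19 to 19.97%). That interval covers the 14.3 to 16.7% found in the pax6 samples. The other library left out, P01, had 1 of 11 counts there.

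The window at 243580 on scaffold_149 had 72hpa samples on opposite sides of the uninjured ones in the populations, but neither change passed the test (edgeR, adjusted p = 0.591 in pax6 and 0.91 in all-tissue samples). At 72hpa against uninjured its log2 fold change was 0.25 in pax6 samples, where every 72hpa sample (60.96 to 69.4 CPM) was above both uninjured ones (49.0 and 56.9 CPM). In all-tissue samples it was −0.10, and every 72hpa sample (76.0 to 77.7 CPM) was below every uninjured one (78.7 to 83.4 CPM). This order rests on adding up the 2 libraries of all-tissue 72hpa replicate 1, which had 83.4 and 66.5 CPM on their own. The test of the change over all timepoints between the populations did not call this window (adjusted p = 0.852), and the difference at 72hpa itself was not tested.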

How the results depend on the processing

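The windows higher in pax6 samples numbered 7, and 23 with the 23 libraries of the deposited comparisons, 21 with DESeq2, 11 with the likelihood ratio test, 14 in the 10-group model, 13 with total counts, 2 with second libraries as own samples, 0 at an adjusted p under 0.01 and 36 without the 3 libraries that stood apart (chosen after seeing the data). The lower windows numbered 16, 10 at 0.01 and 28 in the 10-group model. Over the timepoints all-tissue samples gave 5 windows, and 26 with 23 libraries, 11 with DESeq2, 12 with the likelihood ratio test, 12 with the replicate block and 2 at 0.01. pax6 samples gave 0, and 8 with DESeq2. At 72hpa in all-tissue samples the higher windows numbered 0, 3 with 23 libraries and 1 with second libraries as own samples. The lower ones numbered 6, 28 with 23 libraries, 3 with the second 72hpa library moved to replicate 2, 12 without the 3 libraries and 0 at 0.01. In pax6 samples DESeq2 and the likelihood ratio test gave 1 lower window each. The interaction gave 0, 1 with 23 libraries, 7 with DESeq2 and 1 with the likelihood ratio test. Counts over all windows moved as well. Between the populations they were 795 higher and 1100 lower, 946 and 2174 with the 23 libraries, and 1099 and 1394 with DESeq2. Over the timepoints in all-tissue samples they were 131, 237 with DESeq2 and 895 with the likelihood ratio test. At 72hpa in all-tissue samples the lower ones were 31, and 15 with the second 72hpa library moved to replicate 2. The 23 libraries counted both libraries of all-tissue 72hpa replicate 1 as own samples and left some groups with a single library. More of all windows were then also called over the timepoints and at 72hpa in all-tissue samples. The causes of these shifts were not tested.

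Leaving out 1 sample at a time gave 3 to 21 higher and 10 to 23 lower windows between the populations, 0 to 42 over the timepoints in pax6 samples and 2 to 24 in all-tissue samples. At 72hpa it gave 0 to 0 higher and 0 to 8 lower windows in all-tissue samples, 0 to 53 higher and 0 to 41 lower in pax6 samples, and 0 to 12 for the interaction. These fits used a dispersion trend from a part of the windows, which with all samples gave the same counts except 5 instead of 6 lower windows. The highest counts in pax6 samples and for the interaction came without pax6 uninjured replicate 1, which left a single sample in that group. The highest count over the timepoints in all-tissue samples came without all-tissue 0hpa replicate 3, which also left a single sample in its group. The median share of counts in top windows was 15.1% (15.003 to 15.2% without 1 sample), and 7.34% for top windows on chromosomes over counts on chromosomes. Within 1000 bp of a TSS lay 13.1% of annotated top windows. No named fold change turned sign. Whether the replicate numbers pair the samples was not settled. Between the populations, 2 of 12 same-numbered pairs had r over 0.1, in a range of −0.17 to 0.15. At 24hpa and 72hpa all same-numbered pairs were positive, at 0.02 to 0.11. With the block, 5 higher and 14 lower windows were called between the populations and 9 lower ones at 72hpa in all-tissue samples. Over all windows the block gave 528 over the timepoints in all-tissue samples, against 131 without it. Depth limited these windows little, since counting alone gave a median CV of 0.0433.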
